A study of Mus musculus with 14 samples.

Results

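The proteins of the cytosolic ribosome were followed on 106 of 45037 array probe sets, namely every probe set that names one gene alone and whose symbol is that of a ribosomal protein of the small subunit (Rps, Rpsa, Fau) or of the large subunit (Rpl, Rplp0 to Rplp2). Ribosomal S6 kinases and pseudogenes were left out. The 106 probe sets stand for 50 of the 18193 genes that have a probe set of their own. The small subunit holds 58 probe sets of 24 genes and the large subunit 48 probe sets of 26 genes. Of 79 such genes in the platform annotation, another 29 appear only on probe sets that also name other genes, mostly predicted genes and pseudogenes. Rpl3, Rpl5, Rplp1, Rps13 and Rps23 are among these 29 and so are not members.

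The cells were erythroid progenitors expanded from femur and tibia marrow of wild-type C57Bl/6 female mice, 8 to 12 weeks old, which carried no altered allele. Stage E2 progenitors were depleted of lineage-positive and Kit-positive cells and selected for CD71 at day 3.5 of culture, and stage E1 progenitors (CFUe-like) were depleted of lineage-positive cells and selected for Kit and CD71, at day 3 by the deposited record. All cells went without hematopoietic cytokines for 5.5 h and were then either challenged with EPO (erythropoietin) at 4 U/mL for 90 min or left unchallenged. Each group was measured on Affymetrix Mouse Genome 430 2.0 arrays, with 3 EPO-challenged and 3 unchallenged arrays of stage E2, and 4 EPO-challenged and 4 unchallenged arrays of stage E1. The labels call the arrays of a group biological replicates and do not say how many mice or cultures stand behind them.

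A ribosome is built from ribosomal RNAs and a large set of proteins, most of them present once per particle and encoded by a single gene. Their mRNAs are abundant and usually begin with a C followed by a run of pyrimidines, the TOP motif, through which mTOR signalling controls how well they are translated. Red cell precursors are known to be sensitive to a shortage of ribosomal proteins, since loss of one copy of several of these genes causes Diamond-Blackfan anemia, a failure of the red cell lineage in humans. EPO acts through its receptor, the kinase JAK2 and the transcription factor STAT5, and also through PI3K and Ras pathways.

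Values are log2 GC-RMA signals from which one constant per probe set has been subtracted, so differences between arrays can be read and levels cannot. The base of 2 was inferred, and folds rest on it. Array medians over all probe sets lay between -0.023 and 0.031. As a check of the labels, EPO response genes were followed first, and they rose at both stages. All 6 of Cish, Osm, Podxl, Pim1, Socs2 and Socs3 had a probe set past the test, with a log2 change of Cish (probe set 1448724_at) of 4.02 in stage E2 and 5.35 in stage E1. When E1 arrays of the same number were paired in the fit, Cish, Osm and Podxl passed in E1, and the probe sets of Socs3, Socs2 and Pim1 with the lowest unpaired p had adjusted p-values of 0.0538, 0.0682 and 0.0988 (limma). Between the stages, the purification was visible as well. Without EPO, Kit (1452514_a_at) differed by -3.98 log2 units (E2 minus E1) and Slc4a1, the anion exchanger of red cells, by 6.61 (1431743_a_at). Since levels cannot be read, no marker could be shown to be absent from the cells.

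Start sites of the members that moved most are shown first, because TOP runs and STAT5-type elements are the sequence features most often named for these genes and for EPO. RefSeq windows (build GRCm38.p6) reaching from 250 bases before to 50 bases after the annotated start were matched for 44 of the 50 genes. The middle 30 bases are printed 5′ to 3′ on the strand of the gene, with base 16 as the annotated start. Where a C within 5 bases of the start is followed by at least 4 more pyrimidines, the whole pyrimidine run from its first C is in capitals.
Rpl12, chr2:32961697-32961726, plus strand: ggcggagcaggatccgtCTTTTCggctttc
Rps24, chr14:24490663-24490692, plus strand: cccgcgctggggtCCTTCCTTgcgcgttga
Rps9, chr7:3704026-3704055, plus strand: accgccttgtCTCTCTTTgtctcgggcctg
Rps10, chr17:27635230-27635259, minus strand: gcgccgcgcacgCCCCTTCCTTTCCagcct
Rps25, chr9:44407699-44407728, plus strand: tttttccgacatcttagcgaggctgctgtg
Rpl7l1, chr17:46782642-46782671, minus strand: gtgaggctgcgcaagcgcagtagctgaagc

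Rps10 has a run of 13 bases, of which 10 lie from the annotated start on. The run of Rpl12 has 6 bases and begins just after the start, those of Rps24 and Rps9 have 8 and begin before it, and Rps25 and Rpl7l1 have no such run. Another annotated start of Rps24 had none either. Over the 52 windows of the 44 genes, 9 had such a C at the start itself (17.3%) and 22 had one within 5 bases (42.3%), against 2.51% and 18.3% of all 32851 windows. The STAT5-type element TTCNNNGAA, which reads the same way on both strands, stood anywhere in the 300 bases of 3 of the 52 windows (5.77%), those of Rpl35, Rplp0 and Rpl4, against 8.3% of all windows. None of the 6 windows of Rpl12, Rps24, Rps9, Rps10 and Rps25 held it. These are matches of letters in short windows and say nothing of binding.

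With EPO, 4 of the 106 probe sets rose in stage E2 and 2 in stage E1, and none fell at either stage. In stage E2 the 4 were probe sets of Rpl12, Rps24, Rps9 and Rps25 (limma, adjusted p under 0.05 over all probe sets), or 3.77% of members against 4.62% of all probe sets in either direction, 2.54% higher and 2.08% lower. In stage E1 the 2 were probe sets of Rpl12 and Rps10, or 1.89% of members against 1.16% of all probe sets, 0.804% higher and 0.36% lower. The shares of members past this unpaired test were thus near the background at both stages. With the E1 arrays of the same number paired, 0 members passed in E1, against 44 of all probe sets higher and 17 lower. At an unadjusted p under 0.05, 9 members were higher and 2 lower in E2, where 7.81% of all probe sets were higher and 8.66% lower. In E1 10 were higher and 0 lower, where 5.02% of all probe sets were higher and 3.82% lower.

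Rpl12, a large subunit protein at the base of the stalk where translation factors bind, moved most. Its only member probe set, 1435655_at, stood at 2.50, 2.21 and 2.60 in EPO-challenged E2 arrays, against -0.268, -0.938 and -1.08 in unchallenged E2 arrays. In stage E1 it stood at 3.54, 3.19, 3.64 and 3.72 with EPO, against -0.124, 0.124, 0.944 and 1.06 without. Every EPO-challenged array of either stage lay above every unchallenged array. The change was 3.20 ± 0.253 log2 units (SE) in E2, 9.18-fold (adjusted p = 0.0079, limma), and 3.02 ± 0.298 in E1, 8.12-fold (adjusted p = 0.00837, limma). With the E1 arrays paired, the stage E1 result had an adjusted p = 0.0622 (limma). Leaving out any one array kept both calls. Rpl12 is also named on 2 probe sets shared with predicted genes, and these did not move with it. Their changes were -0.06 and -0.04 in E2 and 0.02 and -0.02 in E1.

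**Figure D1:**
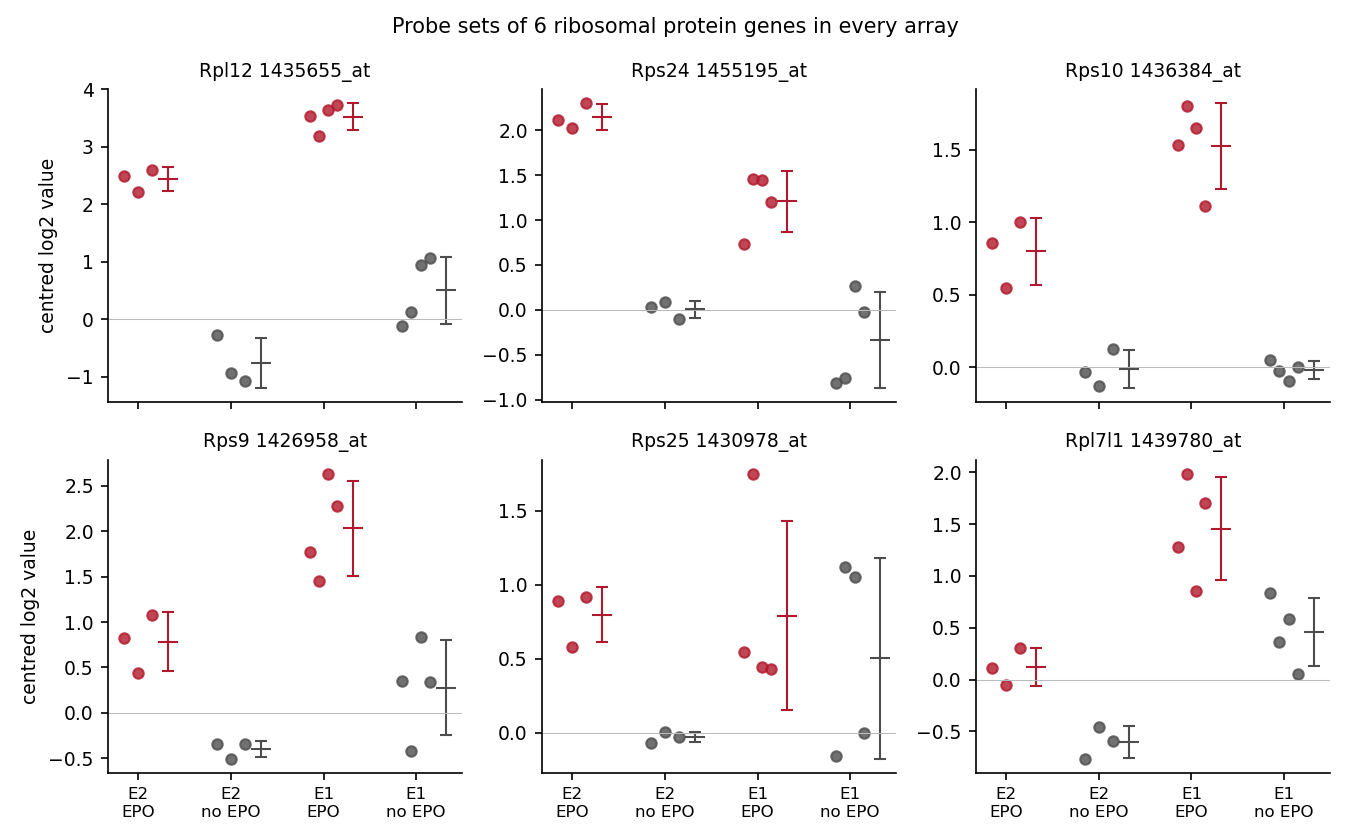
Centred log2 values (vertical axes) of 1 probe set each of Rpl12, Rps24, Rps10, Rps9, Rps25 and Rpl7l1 in every array, by stage and treatment; points are arrays, and the bar and whiskers beside them are the mean and SD (3 arrays a group in E2, 4 in E1). The EPO-challenged arrays lie above the unchallenged arrays of the same stage in all panels but that of Rps25, where the E1 groups overlap.

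Rps24, a small subunit protein and a Diamond-Blackfan gene, had the next largest rise in stage E2. Probe set 1455195_at stood at 2.11, 2.02 and 2.30 in EPO-challenged E2 arrays, against 0.0271, 0.0892 and -0.104 in unchallenged ones. The rise was 2.14 ± 0.0916 log2 units, 4.41-fold (adjusted p = 0.00228, limma), and remained past the test without any one array. In stage E1 the values were 0.735, 1.45, 1.45 and 1.20 with EPO, against -0.813, -0.758, 0.262 and -0.0271 without. These E1 groups did not overlap either, but the difference of 1.54 ± 0.297 missed the threshold (adjusted p = 0.0814, limma). It passed when the spread was estimated over all 14 arrays, E2 arrays included (adjusted p = 0.0042, limma). It missed with the E1 arrays paired, with quantile normalization and with arrays centred on their medians (adjusted p = 0.146, 0.0855 and 0.104, limma).

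Rps10, which sits on the beak of the small subunit and is another Diamond-Blackfan gene, passed in stage E1. Probe set 1436384_at stood at 0.859, 0.549 and 1.0 in EPO-challenged E2 arrays, against -0.0316, -0.129 and 0.130 in unchallenged ones. In E1 it stood at 1.54, 1.81, 1.65 and 1.12 with EPO, against 0.0494, -0.0233, -0.0968 and 0.00293 without. The groups did not overlap at either stage. The difference was 0.81 ± 0.140 in E2 (adjusted p = 0.0519, limma). It was 1.54 ± 0.142 in E1, 2.91-fold (adjusted p = 0.00647, limma), and the adjusted p = 0.085 in limma with the arrays paired.

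Rps9, a small subunit protein near the mRNA entry site, passed in stage E2. Probe set 1426958_at stood at 0.83, 0.436 and 1.08 in EPO-challenged E2 arrays, against -0.347, -0.503 and -0.342 in unchallenged ones. In E1 it stood at 1.77, 1.45, 2.63 and 2.27 with EPO, against 0.353, -0.422, 0.836 and 0.342 without. Again no array of one group lay within the other. The change was 1.18 ± 0.179 in E2, 2.26-fold (adjusted p = 0.0378, limma). In E1 the difference of 1.75 ± 0.346 missed the threshold (adjusted p = 0.0896, limma).

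Rps25, a small subunit protein best known for its part in viral internal initiation, passed in stage E2. Probe set 1430978_at stood at 0.889, 0.582 and 0.918 in EPO-challenged E2 arrays, against -0.0666, 0.00345 and -0.0259 in unchallenged ones, a change of 0.83 ± 0.10 (adjusted p = 0.0222, limma). In E1 its values were 0.546, 1.75, 0.444 and 0.428 with EPO, against -0.156, 1.12, 1.05 and -0.00345 without. The E1 groups overlapped, with EPO replicate 2 far above the others. The stage E2 calls of Rps9 and Rps25 were the less firm ones. Each was lost when any one array other than EPO replicate 2 was left out (adjusted p up to 0.134 and 0.0884, limma), with changes of 1.03 to 1.35 for Rps9 and 0.77 to 0.93 for Rps25, and when the spread came from all 14 arrays (0.141 and 0.608).

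Rpl7l1, a nuclear relative of Rpl7 that takes part in making the large subunit rather than in the finished particle, came close to the threshold on 2 of its 3 probe sets. Probe set 1439780_at stood at 0.114, -0.0576 and 0.305 in EPO-challenged E2 arrays, against -0.762, -0.461 and -0.591 in unchallenged ones (difference 0.73 ± 0.125, adjusted p = 0.0518, limma). Probe set 1452049_at stood at 0.609, 0.881, 0.874 and 0.754 in EPO-challenged E1 arrays, against 0.260, 0.350, 0.0336 and 0.321 in unchallenged ones (difference 0.54 ± 0.0906, adjusted p = 0.0522, limma). Neither group overlapped the other in these values. The third probe set, 1426386_at, differed by 0.09 in E2 and 0.41 in E1.

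Most other members stayed close to 0. Without passing the test, Rpl41 (1433530_at) differed by 0.79 in E1 and 0.40 in E2, Rps18 (1421837_at) by 0.69 and -0.10, and Rpl27a (1437729_at) by -1.31 and 0.11. In stage E2, 95 of the 106 probe sets differed by less than 0.2 log2 units with EPO, and in stage E1 83 did, against 78.3% and 74.0% of all probe sets. The median change of the members was -0.03 in E2 and 0.03 in E1, where all probe sets had medians of -0.00488 and -0.00466. Members with a positive change numbered 36 in E2 (34.0% against 37.0% of all probe sets) and 65 in E1 (61.3% against 39.0%). The large subunit had a median of -0.02 in E2 and 0.03 in E1, and the small subunit -0.03 and 0.03. Taken array by array, the median of the 106 probe sets lay between -0.0114 and 0.0248 in EPO-challenged E2 arrays and between 0.0143 and 0.0260 in unchallenged ones. In stage E1 it lay between 0.0821 and 0.120 with EPO, above all 4 unchallenged arrays (0.0264 to 0.0679). Over all probe sets the E1 array medians overlapped, at -0.00580 to 0.0169 with EPO and -0.00824 to 0.0314 without.

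**Figure D2:**
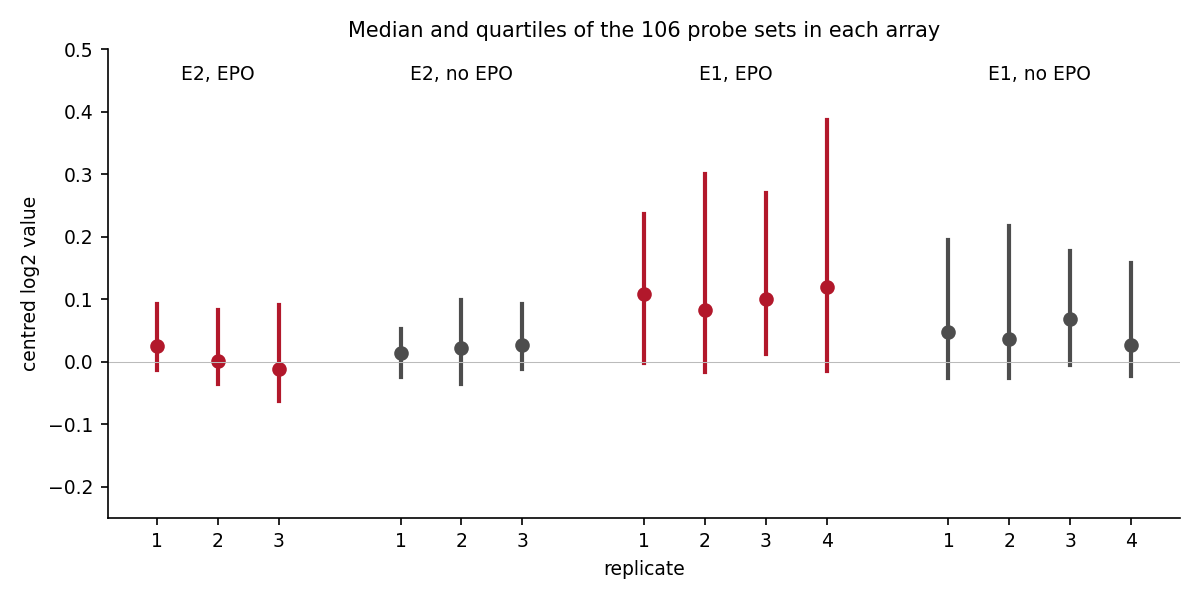
Median (points) and quartiles (lines) of the centred log2 values of the 106 probe sets in each array, by stage and treatment, with the replicate number on the horizontal axis. The EPO-challenged E1 arrays have medians of 0.0821 to 0.120, above those of the unchallenged E1 arrays, while the E2 groups overlap.

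The changes at both stages come from separate arrays and could be set side by side. More than 0.5 log2 units of rise was seen for 6 members in E2 and 10 in E1, and 5 of these 11 probe sets were common to both stages, namely Rpl12, Rps24, Rps10, Rps9 and Rpl7l1 1439780_at. Across the 106 probe sets, which are not independent of one another, Pearson's r between the stages was 0.847. It was 0.731 without Rpl12 and 0.167 over the 95 probe sets under 0.5 at both stages. The 95 were set apart by the size of the same changes that were correlated. Such a choice can lower r by itself, so no conclusion is drawn from the 0.167. No member passed the test of the difference between the stages' EPO changes (interaction, limma, 0 of 106 against 0.415% of all probe sets, 0.18% larger and 0.235% smaller in E2). At an unadjusted p under 0.05, 0 members had a larger and 5 a smaller change in E2, against 3.24% and 3.95% of all probe sets. Among the 5 was Rps10 1436384_at, whose change was different by -0.73 ± 0.212 (E2 minus E1) (adjusted p = 0.275, limma). This rested on the scaling. With quantile normalization over all 14 arrays the change was larger in E2 for Rpl12 1435655_at by 3.14 (adjusted p = 0.011, against 0.18 in the values as deposited) and for Rps24 1455195_at by 2.21 (adjusted p = 0.00101, limma, against 0.60 as deposited). Within each stage, quantile normalization left the change of Rpl12 at 2.97 in E2 and 2.94 in E1.

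**Figure D3:**
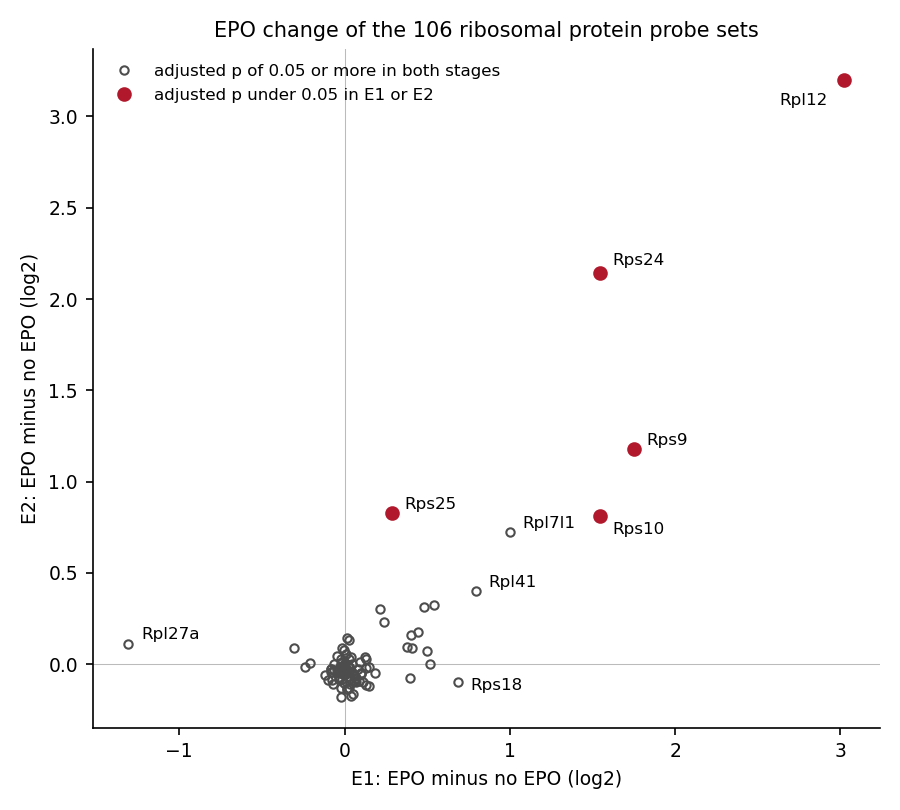
EPO minus no EPO, in log2 units, of the 106 ribosomal protein probe sets in stage E2 (vertical axis) and stage E1 (horizontal axis). Filled points passed the test in at least 1 stage; Rpl12 stands at 3.20 and 3.02, and 95 probe sets lie under 0.5 at both stages.

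For the genes that moved most, 1 probe set often moved without the others. For 24 genes several member probe sets exist, up to 6 for one gene. Where each of them lies in the transcripts could not be looked up. Rps24 has 6. Beside the 2.14 of 1455195_at in stage E2, the other 5 changed by -0.07 to 0.09, and beside 1.54 in E1 they changed by -0.09 to 0.51. The 0.51 belonged to 1436500_at, whose EPO-challenged arrays ran from -0.00386 to 1.60. Rps10 also has 6, and beside 0.81 in E2 and 1.54 in E1 the other 5 changed by -0.17 to -0.03 and by -0.01 to 0.07. For Rps9 the other 2 probe sets changed by -0.03 and 0.30 in E2 and by -0.08 and 0.21 in E1. The 3 probe sets of Rpl7l1, by contrast, all differed upwards, by 0.09 to 0.73 in E2 and 0.41 to 1.0 in E1. In stage E1 Rps18, a small subunit head protein, ran from -0.08 to 0.69 over its 6 probe sets.

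To test this on arrays that had no part in the choice, the probe set with the most positive change in E1 was picked for each of the 24 genes, and its difference from the mean of the gene's other probe sets was compared between EPO-challenged and unchallenged E2 arrays. The difference was larger with EPO for 18 of the 24 genes. For 8 genes all EPO-challenged arrays lay above all unchallenged ones, and for 0 genes below. No genes outside the members were compared in this way, so these counts stand without a share over all genes. For Rps24 the difference was 2.10 ± 0.0909 with EPO against -0.0391 ± 0.0899 without (SD, n = 3 each), for Rps9 0.496 ± 0.350 against -0.544 ± 0.108, and for Rps10 0.776 ± 0.243 against -0.129 ± 0.168. The exact two-sided permutation test gave p = 0.1 for each of the 3 genes, the smallest that 3 against 3 arrays allow, so none of these 24 comparisons could reach 0.05. Rpl7l1, Rpl41, Rpl35, Rpl13a and Rps6 made up the rest of the 8.

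Calls were also set out by the kind of probe set. All 5 probe sets that passed with EPO carry the plain suffix _at, which marks probes designed to be unique to one transcript, while _a_at, _s_at and _x_at probe sets read several transcripts of one gene or may cross-hybridize. Of the 34 plain member probe sets, 4 rose in E2 and 2 in E1, against 2.42% and 0.759% of all plain probe sets, and none of the 29 _a_at, 3 _s_at and 40 _x_at members passed at either stage. Of all _a_at, _s_at and _x_at probe sets, 2.80%, 4.31% and 2.46% rose in E2 and 0.881%, 1.53% and 0.696% in E1. With so few members of these kinds, the absence of calls cannot be told from the background. The median change of the 40 _x_at members was -0.03 in E2 and -0.01 in E1.

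**Figure D4:**
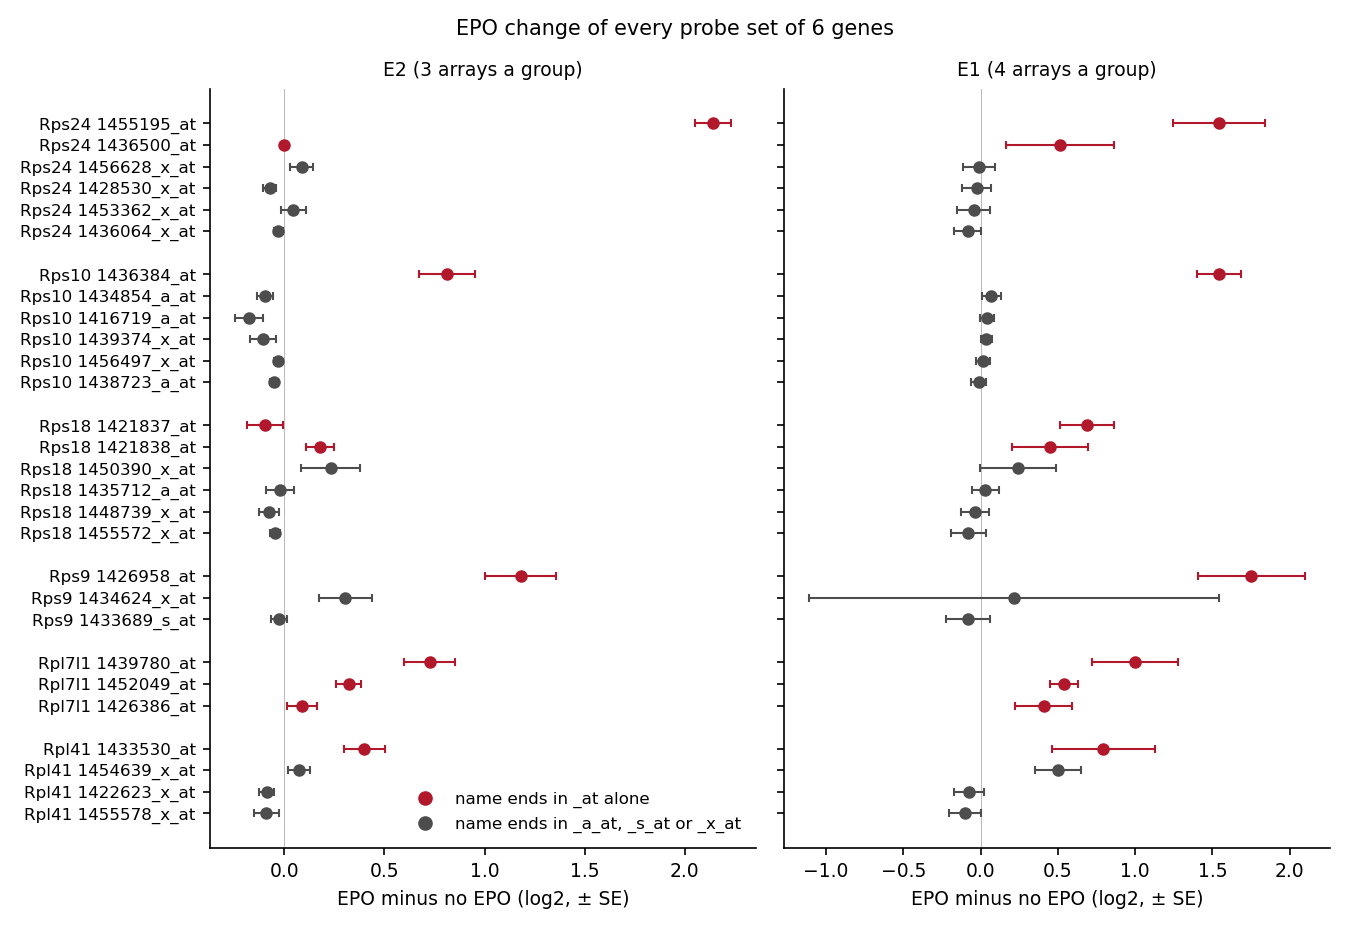
EPO minus no EPO (log2 units, horizontal axes) with its SE for every member probe set of Rps24, Rps10, Rps18, Rps9, Rpl7l1 and Rpl41, in stage E2 (left) and stage E1 (right). Of the 6 probe sets of Rps24, 1455195_at stands at 2.14 in E2 and 1.54 in E1, and the other 5 lie between -0.07 and 0.09 in E2.

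Among the 110 probe sets that name a ribosomal protein gene together with other genes, which cannot be given to one gene, 4 rose in E2 and 5 in E1 and none fell. Of all probe sets, 2.54% rose and 2.08% fell in E2, and 0.804% rose and 0.36% fell in E1. Rpl3 (1438527_at, a large subunit protein by the peptidyl transferase center) had log2 changes of 1.15 in E2 and 0.82 in E1, and Rpl11 (1448773_at, part of the 5S particle that restrains MDM2) of 0.60 and 1.39. In E1 Rps13 (1415913_at) rose by 2.14 (adjusted p = 0.00114), Rpl30 (1438076_at) by 2.14 and Rpl9 (1436798_at) by 2.07. With the arrays paired, limma's 5 adjusted p-values in E1 lay at 0.0516 (Rps13), 0.0682 (Rpl11), 0.114 (Rpl30), 0.141 (Rpl3) and 0.147 (Rpl9). The change of Rps13 was smaller in E2 than in E1, with a difference of -1.40 (interaction, adjusted p = 0.0178, limma).

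Set out by role, most members showed no EPO change past the test. Rplp0 and Rplp2, the measured proteins of the acidic stalk, differed by -0.05 and -0.09 in E2 and by 0.10 and 0.06 in E1. Rpl11 on its own probe set (1417615_a_at) differed by -0.10 in E2 and 0.11 in E1. Fau, made as a fusion with a ubiquitin-like protein, differed by -0.12 and 0.15. Of 34 probe sets of 12 measured Diamond-Blackfan genes, 1 rose at each stage, Rps24 in E2 and Rps10 in E1, and the medians were -0.03 in E2 and 0.03 in E1. Of 20 probe sets of 10 genes whose introns hold small nucleolar RNAs, only that of Rpl12 rose at either stage. The paralogs Rpl3l, Rpl22l1, Rpl39l, Rps27l, Rps4l and Rpl7l1, close copies of a usual ribosomal protein, had 0 of 10 probe sets past the test at either stage, and 0 of 10 passed for the usual forms Rpl7, Rpl22, Rpl39, Rps27 and Rps4x.

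Genes that handle these proteins rose with EPO at both stages. Of 48 probe sets of 26 chaperones and maturation factors of the ribosome, 22 rose in E2 (14 genes) and 15 in E1 (11 genes). None fell, and the median changes were 0.58 and 0.85. These rises are 45.8% and 31.25% of the 48, against 2.54% and 0.804% of all probe sets. Rrs1, which brings the 5S particle into the large subunit, rose by 2.19 in E2 and 2.07 in E1, and Tsr1, a maturation factor of the small subunit, by 2.38 and 1.79 (1455643_s_at). Nmd3, the export adapter of the large subunit, rose by 1.22 and 1.36 (1448133_at). With the arrays paired, 2 of these probe sets passed in E1, against 44 of all probe sets higher and 17 lower. Rrs1 was 1 of the 2 (adjusted p = 0.0495, limma). Of 36 probe sets of 14 measured mTOR and TOP regulators, 3 rose and 2 fell in E2 (8.33% and 5.56%, against 2.54% and 2.08% of all probe sets). In E1 5 rose (13.9% against 0.804%), of which 1 passed with the arrays paired. Myc rose by 3.35 in E2 and 2.59 in E1 (adjusted p = 0.0899 in E1 with the arrays paired, limma), and Larp1, the protein that binds TOP mRNAs, rose in E1 by 0.82 (adjusted p = 0.00175, and 0.0158 with the arrays paired, limma). Other mRNAs with a TOP motif (40 probe sets of 15 genes, such as elongation factors and subunits of eIF3) had 1 rise in E2, Nap1l1 with 0.52, and none in E1. The 1 rise is 2.5% of the 40, against 2.54% of all probe sets in E2.

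Between the stages the members differed more widely. E2 was compared with E1 in a fit of all 14 arrays, separately with and without EPO, and each stage difference uses arrays that also enter the EPO comparisons. With EPO, 5 probe sets were higher and 26 lower in E2 (29.2% of members against 22.3% of all probe sets, of which 10.3% higher and 12% lower). Without EPO, 5 were higher and 14 lower (17.9% against 20.9%, of which 10.1% higher and 10.8% lower). The split depended on scaling. With quantile normalization it was 14 higher and 13 lower with EPO and 15 higher and 11 lower without, and with arrays centred on their medians 7 and 24, and 6 and 13. All 14 probe sets lower without EPO were also lower with EPO, which is 53.9% of the 26, and 3 of the 5 higher ones were common to both (60% of each). The members' median difference was -0.10 with EPO and -0.04 without, where all probe sets had -0.03 in both. By subunit, 16 of 48 large subunit probe sets were lower with EPO and 10 without, against 10 and 4 of 58 small subunit probe sets.

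The largest differences were on few probe sets. Rpl27a (1437729_at), a large subunit protein, stood at -1.04, -0.304 and -1.11 in EPO-challenged E2 arrays, against 3.33, 1.65, 0.455 and 1.27 in EPO-challenged E1 arrays, and at -0.332, -1.60 and -0.862 in unchallenged E2 arrays, against 5.07, 2.56, 2.38 and 1.92 in unchallenged E1 arrays. The groups did not overlap, and the difference was -2.50 ± 0.791 with EPO (adjusted p = 0.0434, limma) and -3.92 ± 0.791 without (adjusted p = 0.004, limma). Rps3 (1455600_at), a small subunit protein also known for a role in DNA repair, stood at -0.171, 0.0396 and -0.0244 in EPO-challenged E2 arrays, against 1.07, 1.17, 1.13 and 0.765 in EPO-challenged E1 arrays, and differed by -1.08 with EPO and -1.31 without. Rpl37 (1438291_x_at) differed by -1.20 and -1.59, Rpl14 (1422128_at) by -0.82 and -0.74, and the 2 probe sets of Rpl7l1 named above by -1.33 and -1.06 (1439780_at) and by -0.75 and -0.53 (1452049_at). Rpl12 (1435655_at) was lower in E2 by 1.09 with EPO and 1.26 without. The other probe sets of Rpl27a and Rps3 differed little. With EPO, Rpl27a 1419799_at differed by -0.01, and Rps3 1435151_a_at and 1447563_at by -0.10 and -0.01. Probe sets 1419799_at and 1447563_at also hardly moved with EPO, by -0.02 and -0.004 in E1 and 0.01 and -0.002 in E2. Since levels cannot be read, it is unknown whether 1419799_at and 1447563_at could show a change.

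The probe sets that were higher in E2 had small differences apart from Rps24. With EPO, Rps24 (1455195_at) was higher by 0.94 ± 0.260 (adjusted p = 0.0236, limma). Rplp0 (1419441_at), the central protein of the stalk and a common reference gene in quantitative PCR, stood at 0.0320, 0.0943 and -0.00932 in EPO-challenged E2 arrays, against -0.295, -0.215, -0.219 and -0.285 in EPO-challenged E1 arrays. It was higher in E2 by 0.29 ± 0.0510 with EPO and by 0.44 ± 0.0510 without (adjusted p = 0.0014 and 7.95e-05, limma). Rps29 (1438859_x_at) was higher by 0.37 in both, Rpl35 (1416243_a_at) by 0.25 and 0.35, and Rps6 (1416142_at), the classic target of the S6 kinases, by 0.37 with EPO. These 5 kept their direction under both scalings, but with quantile normalization Rps24 stood at 2.43, Rpl35 at 0.46 and Rps6 at 0.61 with EPO. Other probe sets of these genes did not all go the same way. With EPO, those of Rps24 differed by -0.55 to 0.17 and those of Rpl35 by -0.21 to 0.12. For Rps29 they differed by -0.19 and 0.05, and for Rps6 by -0.06. Without EPO, Rps10 was higher on 1434854_a_at and 1456497_x_at, by 0.30 and 0.15. With EPO, its probe sets 1416719_a_at and 1436384_at differed by -0.33 and -0.72.

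**Figure D5:**
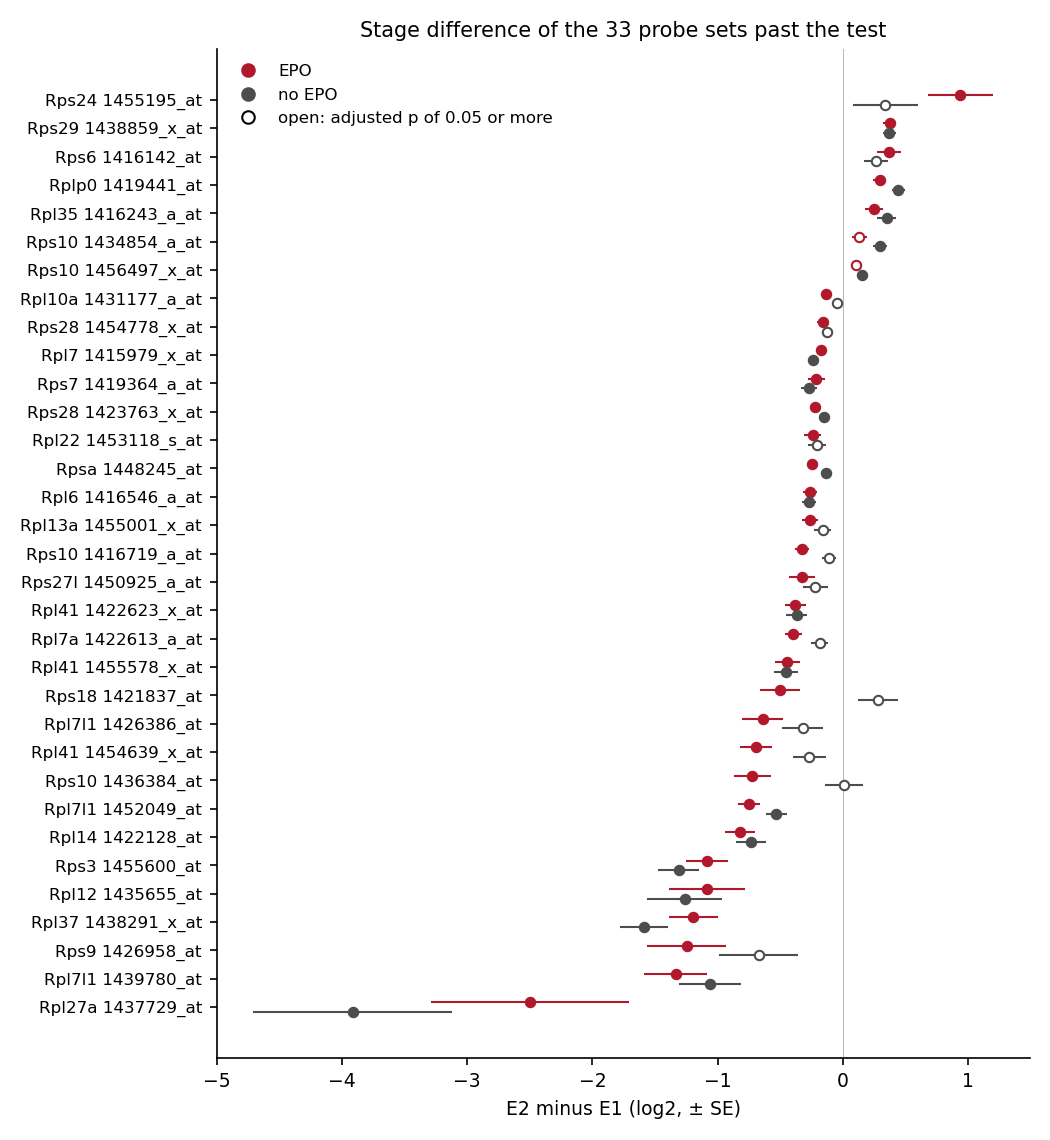
E2 minus E1 (log2 units, horizontal axis) with its SE for the 33 member probe sets past the test with EPO (red) or without (grey); open points had an adjusted p of 0.05 or more. Most lie left of 0, from Rpl27a at -2.50 with EPO and -3.92 without, and Rps24, Rps29, Rps6, Rplp0 and Rpl35 lie to the right with EPO. Rps10 1434854_a_at and 1456497_x_at, which passed only without EPO, also lie to the right with EPO (0.13 and 0.10).

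With quantile normalization the sign of Rpl12 1435655_at (0.98) and Rps10 1436384_at (0.16) turned in the comparison with EPO. That normalization gives all arrays the same distribution, while the members' interquartile range was 0.0766 to 0.153 in E2 arrays and 0.181 to 0.403 in E1 arrays. Cell type markers moved with the stage too. Without EPO, 7 of 10 probe sets of myeloid markers (7 of 8 genes, median -4.02, among them Mpo at -9.47 and S100a8 at -9.49) and both mast cell probe sets were lower in E2, and all 3 of the megakaryocyte probe sets were higher. Their part in the result was not tested. Stage, sort, the recorded day of culture and any batch of arrays cannot be told apart, nor can fewer cells of a type and less RNA per cell. Some stage calls were lost when 1 array was left out, with differences of similar size. With EPO, Rpl27a was lost without any array but E1 replicate 3 (-2.90 to -1.95, adjusted p up to 0.133, limma), Rpl35 without any but E1 replicates 3 and 4 (0.22 to 0.27, up to 0.0988), Rpl12 without E1 replicates 3 or 4 or E2 replicates 1 or 2 (-1.20 to -0.97, up to 0.0894), Rps24 without E1 replicate 1 or E2 replicates 1 or 3 (0.78 to 1.02, up to 0.0908), Rps6 without E2 replicate 3 (0.0600) and Rps9 without E2 replicate 2 (0.0681). Without EPO, Rpl12 was lost without E2 replicate 3 (0.0531), and Rps10 1456497_x_at without E2 replicates 2 or 3 (0.12 to 0.17, adjusted p up to 0.0739, limma).

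The pattern of Rpl12 1435655_at over the 14 arrays was most like that of Tmem199 (Pearson's r = 0.987), Kbtbd8 (0.984), Clint1 (0.983), Hspa8 (0.976), a heat shock cognate chaperone, and Ccnd2 (0.967), cyclin D2. Among the members, Rps9 1426958_at (0.916), Rps10 1436384_at (0.892), Rpl7l1 1452049_at (0.755), Rps24 1455195_at (0.751) and Rpl41 1433530_at (0.739) came nearest, while the median over the other 105 probe sets was 0.0588. The arrays share the 4 groups, so these values describe a common pattern of groups and carry no test.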

How the data were processed

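Affymetrix arrays of 14 RNA samples were scanned and first processed by the authors with GCOS, and GC-RMA values were made in GeneSpring GX 11.0. The processing notes also name GCRMA, with no version. Each deposited value is a log2 signal less a constant particular to its probe set, and in 78.0% of probe sets 2 arrays have opposite values that sum to 0 within 2e-06. The base of 2 is inferred. A filter on low levels and marker levels, both part of the design, could not be derived from such values. No low values were filtered, and all 106 members were tested.

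Of 45101 probe sets, 64 controls were left out. EPO-challenged and unchallenged arrays were compared within each stage, and the stages and the interaction in a fit of all 14 arrays, with limma 3.58.1 in R 4.3.3, two-sided, with Benjamini-Hochberg adjustment over 45037 probe sets and a threshold of 0.05. Calculations were tested on simulated data. Probe sets were named from the platform annotation, in which 34945 name 1 gene, 932 several and 9160 none, and sequences came from RefSeq. Rps3a1 was counted as a member. The exact permutation test used scipy 1.17.1 and figures matplotlib 3.10.9.

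Members, gene lists and tests were chosen with earlier results of these data known. Rpl12 and Rps24 were followed because the study names them for EPO in stage E1, so their E1 changes are no independent evidence. Named probe sets were those of Rpl12, Rps24, the paralogs and their usual forms, the stalk and the 5S particle, and up to 10 in each direction past the test per comparison. Other probe sets and the shared ones were named after their values were seen. Lists were the mitochondrial ribosomal proteins, maturation factors, mTOR and TOP regulators, other TOP mRNAs, p53 surveillance genes, EPO response genes, Diamond-Blackfan, small nucleolar RNA host and splicing-controlled genes and cell type markers.

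In E1, EPO-challenged and unchallenged arrays that share a number also shared their deviations from the means of their groups (r = 0.195, 0.187, 0.173 and 0.152), although unchallenged replicate 4 and EPO replicate 3 reached 0.203. The numbers, taken from the labels, were therefore read as pairs, and paired values are given beside E1 calls that they end. Neither the labels nor the paper give a shared batch. Alternatives were quantile normalization, arrays centred on their medians, the replicate block, the spread from other arrays, array weights, the options trend and robust of limma, the more variable part of the probe sets (SD above the median), the methods' one-tailed t-test, the gene as the unit, probe sets without _x_at and _s_at, a fold of 1.5 and each array left out in turn. Adding the shared probe sets was chosen after seeing the data. The median SD of a member between replicates was 0.0629 with EPO and 0.0460 without in E2, and 0.142 and 0.106 in E1, and precision is limited by how many arrays a group has.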

Additional observations from a re-analysis of the deposited data

Results flagged for a closer look

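In the 4-array groups of stage E1, 1 array stood far from the other 3 in 7 of 102 groups looked at (51 probe sets), or 6.86%, where chance alone gives about 5%. Among EPO-challenged arrays, Rps9 (1434624_x_at) stood at -4.05 in replicate 1, against -0.746 to -0.348 in the others, and among unchallenged arrays at -4.98 in replicate 1, against -0.877 to -0.312. Replicate 1 was thus apart in both groups for this probe set. Rps25 (1430978_at) stood at 1.75 in EPO replicate 2, against 0.428 to 0.546, and Rpl39 (1423032_at) at -1.05 in EPO replicate 2, against -4.05e-05 to 0.106. In EPO replicate 1, Rpl39l (1423327_at) stood at 0.273, against -0.0203 to 0.00614, and Rpl7 (1426163_x_at) at 0.0957, against -0.0238 to -0.0129. Rps4l (1452730_at) stood at 0.806 in unchallenged replicate 1, against -0.00667 to 0.0420. None of these probe sets passed the test of the EPO change in stage E1.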

How the results depend on the processing

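All counts here are of members past the test, higher and then lower where both are given. Pairing arrays of one number (the replicate block) left 0 members higher with EPO at each stage, against 2 in E1 and 4 in E2. In E2 same-numbered arrays correlated at -0.0609, -0.0567 and -0.0155, so that fit shares a number only. Its adjusted p-values were 0.0611 (Rpl12), 0.0501 (Rps24), 0.0864 (Rps9) and 0.110 (Rps25, all limma). For EPO in E1, 8 were higher with the spread from all 14 arrays, 6 with array weights, 4 among the more variable probe sets and 12 by the methods' t-test unadjusted. For EPO in E2 there were 7 with array weights, 7 among the more variable probe sets, and 9 higher and 11 lower by that t-test. For the interaction, quantile normalization gave 2 higher. With the shared probe sets added, 7 were higher in E1, 8 in E2, and 1 higher and 1 lower in the interaction, while the shared ones alone gave 5 in E1 and again 1 and 1 in the interaction.

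For E2 against E1 without EPO (5 higher, 14 lower), quantile normalization gave 15 higher, the more variable probe sets 3 higher, the t-test 15 and 33, the gene as the unit 3 and 9, leaving out _x_at and _s_at 3 and 9, a fold of 1.5 0 and 6, and the shared probe sets added 10 and 48 (alone, 34 lower). With EPO (5 higher, 26 lower), quantile normalization gave 14 and 13, array weights 11 and 41, the more variable probe sets 17 lower, the t-test 10 higher, the gene as the unit 2 and 16, leaving out _x_at and _s_at 17 lower, a fold of 1.5 1 and 11, and the shared probe sets added 18 and 73 (alone, 13 and 47). Quantile normalization turned Rpl12 1435655_at to 0.98 and Rps10 1436384_at to 0.16 there, and the cause was not tested. Leaving out 1 array at a time gave 2 to 3 higher for EPO in E1, and 2 to 5 higher and 0 to 1 lower in E2 (Rps10 1438723_a_at, without EPO replicate 2). It gave 4 to 8 higher (8 without E1 replicate 3) and 12 to 17 lower for the stages without EPO, and 2 to 6 higher and 17 to 27 lower with EPO (2 and 17 without E2 replicate 3, and 3 higher without E2 replicate 1). The interaction stayed at 0.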

Other observations

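The proteins of the mitochondrial ribosome, which are encoded by other nuclear genes and make the proteins of the respiratory chain, were measured on 156 probe sets of 76 genes. With EPO, 2 rose and 6 fell in E2 (1.28% and 3.85%, against 2.54% and 2.08% of all probe sets, median -0.01) and 1 rose in E1 (median 0.08), where 0 passed with the replicate number as a block. Between the stages, 66 were lower and 4 higher in E2 with EPO (42.3% and 2.56%, against 12% and 10.3% of all probe sets, median -0.36), and 51 were lower and 7 higher without (32.7% and 4.49%, against 10.8% and 10.1%, median -0.21).

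Of 17 probe sets of 8 measured genes of p53 surveillance, which responds to unassembled ribosomal proteins, 2 rose with EPO at each stage and none fell. Over all probe sets, 2.54% rose in E2 and 0.804% in E1. Cdkn1a (1424638_at) rose by 0.95 in E2, Sesn2 (1451599_at) by 0.50 in E2 and 2.25 in E1, and Mdm4 (1419558_at) by 0.71 in E1. Between the stages, 7 of the 17 were higher and 1 lower in E2 with EPO (41.2% and 5.88%, against 10.3% and 12% of all probe sets). Without EPO, 5 were higher and 1 lower (29.4% and 5.88%, against 10.1% and 10.8%). Cdkn1a was higher in E2 by 3.20 with EPO and 3.48 without, and Sesn2 by 2.56 and 4.31. The lower ones were Mdm4 with EPO (-0.40) and Ccng1 (1420827_a_at) without (-0.445). In E1 0 of the 17 passed with the replicate number as a block. Maturation factors of the ribosome were lower in E2 than in E1 on 32 of 48 probe sets with EPO and on 28 without, with none higher. These are 66.7% and 58.3%, against 12% and 10.8% of all probe sets lower. Rpl12 and Rpl10a are known to control the splicing of their own mRNAs, and Rpl10a (1431177_a_at) differed by -0.04 with EPO in E2 and by 0.05 in E1. Of the lineage markers, 0 of 12 erythroid, 10 myeloid, 3 megakaryocyte, 2 mast cell, 3 B cell and 4 T cell probe sets passed with EPO at either stage.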
